A study of Mus musculus with 2 samples.

Results

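The genes described here are 34 genes of protein acetylation and transcriptional coregulation out of 21853 protein-coding mouse genes: 9 acetyltransferases, 16 deacetylases, 5 bromodomain genes and 4 nuclear receptor coregulators. They were chosen by name, and EP300 peaks were given to the gene with the nearest protein-coding transcription start site (TSS) within 100 kb of the summit. A summit within 1 kb of that TSS made a promoter peak. All 34 genes were found in the annotation, and none was left out by a filter. EP300-bound chromatin was immunoprecipitated and sequenced (ChIP-seq, antibody against EP300) from whole lung of newborn B6NCrl mice at postnatal day 0. Both libraries belonged to this single untreated group. Although they are numbered as biological replicates 1 and 2, their donor and biosample records are the same, and differences between them may thus be technical. No sex was recorded. Whole lung mixes epithelial, endothelial, mesenchymal and blood cells, so a peak cannot be given to a cell type.

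Lysine acetyltransferases place acetyl groups on histone tails and other proteins, deacetylases remove them, and proteins with a bromodomain bind the acetylated lysine. EP300 (p300) and its paralogue CBP are acetyltransferases that DNA-bound transcription factors recruit to active enhancers and promoters, where they acetylate histone H3. Coregulators of the p160 family, the products of Ncoa1, Ncoa2 and Ncoa3, link hormone-bound nuclear receptors to p300 and CBP, whereas Ncor1 encodes a scaffold that brings HDAC3 to unliganded receptors. The data therefore show where p300 itself was found near the genes of its own enzymatic system.

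Of the 34 genes, 22 (64.7%) had at least 1 optimal EP300 peak, against 46.9% of all protein-coding genes, and together they had 101 peaks. The MYST acetyltransferase genes had 4.2 peaks per gene, the class IIa deacetylase genes 6.5 and the p160 coactivator genes 6.0. The 1092 genes with the most surrounding sequence had a mean of 6.16, as given with the territories further on. Ncoa1 and Ncoa2 had that much sequence, but Ncoa3 had less. None of the optimal peaks was assigned to Ep300 itself. A set of 9 genes (26.5%) had a promoter peak, against 19.6% of all genes, and 11 (32.4%) had 5 or more peaks, against 10.9% of all genes. These 11 genes held 75 of the 101 peaks. The mean was 2.97 ± 3.11 peaks per gene with a median of 2 (SD over the 34 genes), against 1.68 ± 3.36 with a median of 0 over all 21853 genes. The genes were chosen with earlier results of these data known, so these shares describe them and carry no test.

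Sequences are shown for 9 of the peaks described below, so that strong sites and the leading sites of each class can be read directly. They are the 100 bases around the summit, read from the mm10 plus strand (RefSeq assembly GRCm38.p6), 5′ to 3′. Capitals mark matches on either strand to any of the short motifs listed after them. The Kat6b, Crebbp, Hdac4, Brd7 and Ncoa3 sites come from the gene with most peaks in its class, or from Crebbp as the paralogue of Ep300. Kat2b, Hdac7 and Sirt5 were added after their values were seen, because these peaks were among the strongest of the 101. The strongest peak of Hdac4, and those of Brd2, overlapped untranslated regions and are described without sequence.
Kat6b intron, chr14:21522483-21522582: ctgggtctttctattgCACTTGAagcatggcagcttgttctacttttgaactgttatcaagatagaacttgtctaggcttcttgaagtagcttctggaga
Kat6b internal promoter, chr14:21500526-21500625: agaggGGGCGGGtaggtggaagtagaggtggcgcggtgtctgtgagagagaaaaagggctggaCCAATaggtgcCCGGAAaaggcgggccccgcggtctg
Kat2b intron, chr17:53587229-53587328: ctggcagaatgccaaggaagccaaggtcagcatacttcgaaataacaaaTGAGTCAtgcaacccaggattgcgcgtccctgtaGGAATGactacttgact
Crebbp upstream, chr16:4274035-4274134: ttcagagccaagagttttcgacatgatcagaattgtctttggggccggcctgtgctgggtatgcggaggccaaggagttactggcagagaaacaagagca
Hdac7 intron, chr15:97823033-97823132: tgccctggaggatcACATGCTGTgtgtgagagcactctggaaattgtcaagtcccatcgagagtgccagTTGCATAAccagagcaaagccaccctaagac
Hdac4 intron, chr1:92130608-92130707: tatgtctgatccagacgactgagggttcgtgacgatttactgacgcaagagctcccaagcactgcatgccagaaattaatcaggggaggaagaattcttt
Sirt5 upstream, chr13:43337056-43337155: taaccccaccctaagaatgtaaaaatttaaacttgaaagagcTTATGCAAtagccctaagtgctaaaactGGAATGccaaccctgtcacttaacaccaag
Brd7 exon, chr8:88357514-88357613: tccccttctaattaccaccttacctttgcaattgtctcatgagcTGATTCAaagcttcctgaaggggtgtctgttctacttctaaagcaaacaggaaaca
Ncoa3 upstream, chr2:165954926-165955025: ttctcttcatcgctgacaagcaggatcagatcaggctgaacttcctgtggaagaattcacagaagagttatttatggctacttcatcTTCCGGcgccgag

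The Kat2b intron window held an AP-1 site and a TEAD site, and the Hdac7 intron window held a CEBP site and a core of the glucocorticoid response element. The Sirt5 upstream window held CEBP and TEAD matches, the Brd7 window an AP-1 match and the Ncoa3 window an ETS match. The internal Kat6b promoter held KLF/SP, NFY and ETS matches and had a GC content of 64.0%, whereas the Kat6b intron window held an NKX2 match and had 41.0%. The Crebbp and Hdac4 windows held no match to any motif searched. Some motifs overlap by construction: the short form of the CRE, TGACGT, lies within the full CRE, TGACGTCA.

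Over all 101 windows, AP-1 (TGANTCA) was found in 13, or 12.9%, against 7.67% of the 43972 optimal windows on the chromosomes. TEAD (GGAATG) was found in 13.9%, against 11.7%, and CEBP (TTGCNNAA) in 11.9%, against 8.70%. The core of the glucocorticoid response element (ACANNNTGT) was found in 8.91%, against 7.08%. ETS (CCGGAA) was found in 7.92%, against 4.21%, and KLF/SP (GGGCGGG) in 4.95%, against 2.50%. Shares were lower than over all windows for the GATA factor site AGATAA (4.95%, against 8.31%), for NFY (CCAAT; 8.91%, against 11.2%), for FOX (TGTTTAC; 4.95%, against 5.35%) and for NKX2 (CACTTGA; 0.990%, against 3.13%). SOX (ACAATGG) and STAT (TTCCNGGAA) were each found in 1.98%, against 2.13% and 1.54%, and the E-box CACGTG in 0.990%, against 1.81%. Neither CRE form, nor the NRF1 site GCGCATGC, nor the YY1 site GATGGCGG was found in these windows. A match is a description of the letters and not a measured binding site. Each of these shares rests on 14 windows or fewer.

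The promoters of the 34 genes were rich in CpG. In the window of 250 bases before to 50 after the TSS at the gene's 5′ end, the median GC content was 59.0%, against 55% for all genes, and the median ratio of observed to expected CpG was 0.73, against 0.52. KLF/SP matches were found in 44.1% of these promoters, against 31.5% of all promoters, and ETS matches in 32.4%, against 17.4%. TEAD matches were found in 23.5%, against 13.5%, whereas NFY matches were found in 32.4%, against 39.0%. CEBP matches were found in 14.7%, against 10.6%, and AP-1 in 5.88%, against 6.90%. YY1, E-box and short CRE matches were each found in 8.82%, against 2.045%, 7.75% and 8.65%. NRF1 and SOX were each found in 5.88%, against 3.69% and 2.89%. None held GATA (10.2% of all promoters), the glucocorticoid response element core (5.83%), FOX (3.07%), NKX2 (3.03%), full CRE (2.43%) or STAT (1.18%). Each share among the 34 genes rests on 15 promoters or fewer.

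All 10 genes of a list of lung markers had a peak, with 79 peaks in all, against 46.9% of all genes. Of 10 markers of other organs, 1 had a peak (Tnnt2, a cardiac troponin gene, with 1 peak). Both lists were chosen with earlier results of these data known, so the counts are no independent check of the tissue. The optimal set held 43988 reproducible peaks made from both libraries, of which 36743, or 83.6% of the set, were assigned within 100 kb. Separate lists of 300000 peaks existed for each library, represented here by its strongest 43988. At least 1 peak was found at 48.5% of all genes in replicate 1 and 47.6% in replicate 2, and a promoter peak at 21.7% and 20.6%. Signal values are those the authors gave each peak, with no scaling stated. Depth was unknown, since read counts were not part of the lists.

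The libraries gave similar counts for the 34 genes, with 106 peaks in replicate 1 and 100 in replicate 2. These lay at 26 and 24 of the genes, and 14 and 10 genes had a promoter peak. The count per gene was the same in both libraries for 15 genes and within 1 for 28, and the largest difference was 3 (Hdac5, with 4 peaks in replicate 1 and 1 in replicate 2). Both libraries had a peak at 21 of the 22 genes with an optimal peak. The exception was Brd3, which had 2 peaks in replicate 1 and none among the strongest peaks counted for replicate 2. Its optimal peak did have a match in the full list of replicate 2, with a signal of 11.6 at rank 54246.

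**Figure D1:**
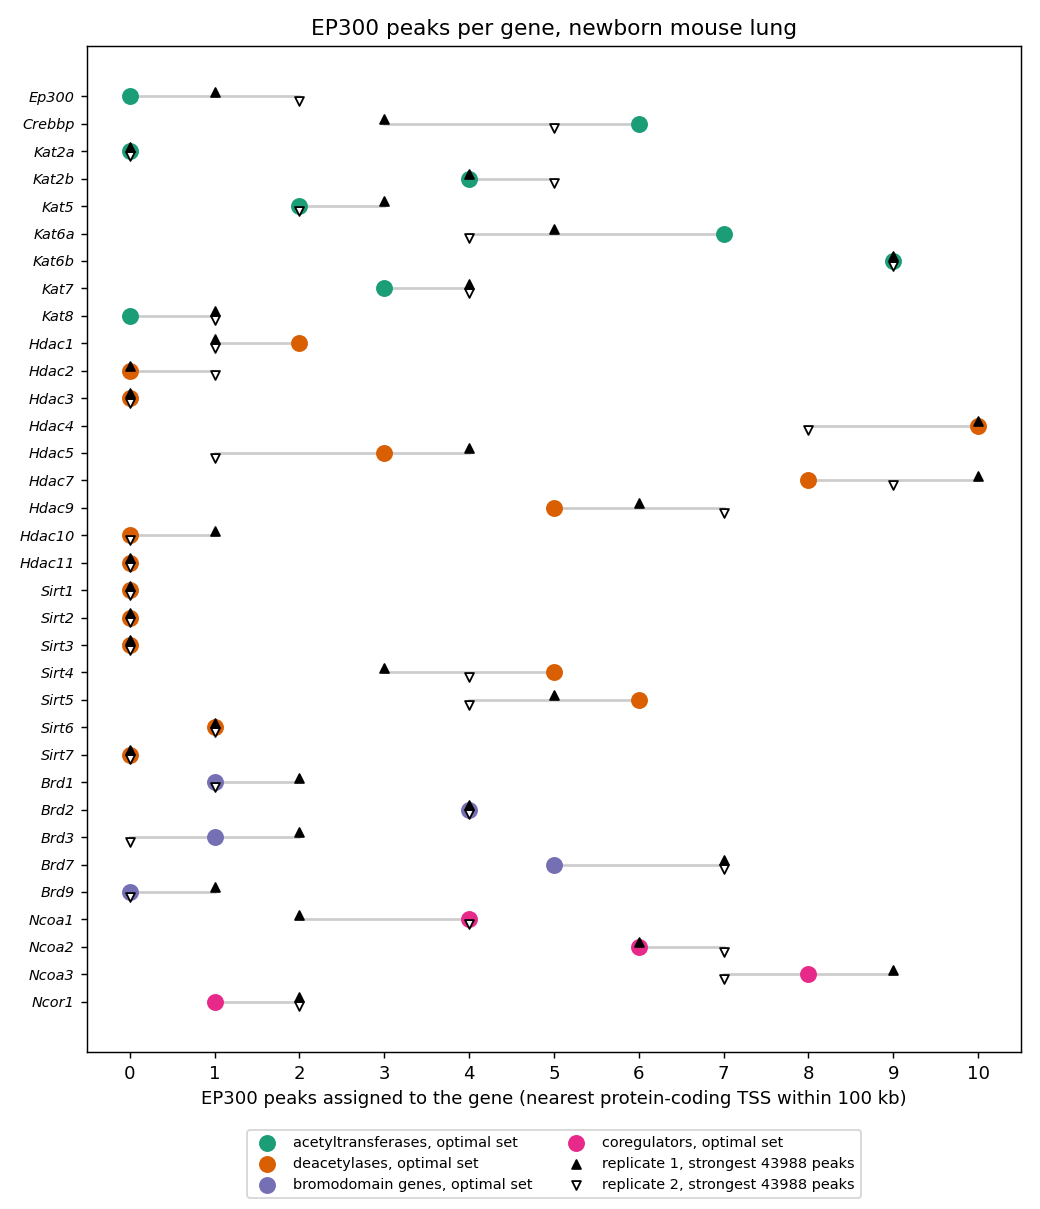
EP300 peaks assigned to each of the 34 genes (horizontal axis, number of peaks), in the optimal set (coloured circles, by class) and in the strongest 43988 peaks of replicate 1 (filled triangles) and replicate 2 (open triangles). Hdac4 had 10 optimal peaks, Ep300 had none in the optimal set, and counts in the libraries differed by at most 3.

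Among the acetyltransferases, 6 of 9 (66.7%, against 46.9% of all genes) had a peak, with 31 peaks in all (30 in replicate 1 and 32 in replicate 2), a median of 3 and a mean of 3.44 ± 3.32. Ep300, on chromosome 15, had no optimal peak, and its closest optimal peak lay 61817 bp away and was assigned to Rbx1, a ubiquitin ligase subunit gene. A peak was nevertheless called within 1 kb of the start of Ep300 in both libraries, with a signal of 23.7 in replicate 1 (rank 28599 of its list) and 19.7 in replicate 2 (rank 25440). On the pooled reads the best peak at this start had a signal of 23.4 and rank 58610. The gene therefore had 1 promoter peak in replicate 1 and 2 in replicate 2, but none that the authors kept as reproducible.

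Crebbp, encoding CBP, had 6 optimal peaks (3 in replicate 1 and 5 in replicate 2) and no promoter peak. It had 3 in the conservative set and none with the nearest start of any gene. The optimal peaks formed 2 groups. The stronger group lay upstream of the gene, and its top peak, 60.1 kb upstream at chr16:4273873-4274296, had a signal of 55.2 in the optimal set, 37.3 in replicate 1 and 16.3 in replicate 2. The other group lay in an intron 53.3 kb downstream of the gene's 5′ end, with a strongest signal of 43.6. Its other signals were 13.6 and 11.1. The peaks of this group overlap and are not independent sites, and with overlapping peaks merged Crebbp had 4. The closest peak to any Crebbp start was 32085 bp away, so both paralogues lacked an optimal peak at their start. Most genes lacked one, since 21.5% of all genes had an optimal peak within 1 kb of their own start.

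Of the GCN5/PCAF pair, the catalytic subunits of the SAGA and ATAC complexes, Kat2b (PCAF) had 4 peaks, all in its introns, and Kat2a (GCN5) had none in either library. The strongest Kat2b peak, at chr17:53587067-53587490, had a signal of 138.4, with 83.0 in replicate 1 and 56.7 in replicate 2. The territory of a gene, the sequence within 100 kb to which its starts were the nearest, was 114 kb for Kat2b and 4.79 kb for Kat2a. Kat2a thus had little sequence in which a peak could be counted.

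The MYST family had peaks at 4 of its 5 genes (80%, against 46.9% of all genes). They had 21 peaks in all, or 5.53 per 100 kb of territory against 2.29 over all genes, with overlapping peaks counted separately. Kat6b (MORF) had 9 peaks in each library and in the optimal set. Kat6a (MOZ) had 7 optimal peaks (5 in replicate 1 and 4 in replicate 2), and Kat7 (HBO1) had 3 (4 in each library). MOZ, MORF and HBO1 work in complexes with BRPF or JADE scaffold proteins and acetylate mainly histone H3 or H4. All 9 peaks of Kat6b lay in its introns, and the gene body held 2 further peaks assigned to Dupd1. Its strongest peaks had signals of 126.9 (77.9 in replicate 1 and 52.8 in replicate 2) and 117.7 (70.1 and 46.03). Its promoter peak, with a signal of 79.0, was at an internal start 19.1 kb downstream of the gene's 5′ end. The Kat6a and Kat7 promoter peaks, 2 each, lay within 1 kb of the 5′ end, with signals between 20.4 and 47.0. Kat7 had 3 promoter peaks in replicate 1 and 2 in replicate 2, whereas Kat6a had 1 in replicate 1 and none in replicate 2. In the full list of replicate 2, the Kat6a promoter peak nearer the 5′ end had a match at rank 55980. With the nearest start of any gene Kat6a had 4 peaks. With overlapping peaks merged, Kat6b had 7 peaks, Kat6a 6 and Kat7 2.

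Kat5 (TIP60, of the NuA4 complex) had 2 upstream peaks, the stronger 4.94 kb from the TSS with a signal of 106.4 (58.7 in replicate 1 and 48.0 in replicate 2). Kat8 (MOF, which acetylates histone H4) had no optimal peak, although a peak lay within 1 kb of its start at rank 33788 in replicate 1 and rank 27483 in replicate 2. Its gene body held 3 optimal peaks, all assigned to the neighbouring protease gene Prss8. A Kat8 promoter peak and a Kat5 promoter peak were present in the conservative set, so these calls differed between the authors' lists.

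Among the deacetylases, 8 of 16 (50%) had a peak, close to the 46.9% of all genes, with 40 peaks in all (41 in replicate 1 and 36 in replicate 2), a median of 0.5 and a mean of 2.5 ± 3.31. The 4 class IIa genes, whose products shuttle between nucleus and cytoplasm under the control of calcium-dependent and other kinases, held 65.0% of these peaks. All 4 had a peak, with 26 in all, or 6.5 ± 3.11 per gene. The 12 other deacetylase genes had 14 peaks, with 4 of the 12 having any and a median of 0. Their territories were unlike: 392 kb for Hdac4 and 381 kb for Hdac9, but 74.6 kb for Hdac7 and 46.4 kb for Hdac5, with a median of 17.1 kb for the other deacetylases. Per 100 kb of territory the class IIa genes had 2.91 peaks, and the other deacetylases 2.98, against 2.29 over all genes.

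Hdac4 had 10 optimal peaks, with 10 in replicate 1 and 8 in replicate 2. It had 5 in the conservative set, 4 with 1 start per gene and 4 with the nearest start of any gene. Its strongest, at chr1:91928963-91929386, also had the highest signal among all 101 peaks. That signal was 200.9 in the optimal set (rank 1054), with 119.5 in replicate 1 and 79.4 in replicate 2. It lay in an exon 266.5 kb downstream of the 5′ end of a gene 266.9 kb long, that is, at its far end. A second strong peak, in an intron at chr1:92130446-92130869, had a signal of 133.7 (82.1 in replicate 1 and 50.4 in replicate 2). None of the 10 lay at a promoter.

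Hdac7, which is best known for its role in endothelial cells and lymphocytes, had 8 optimal peaks in a territory of 74.6 kb, or 10.7 per 100 kb, with 10 in replicate 1 and 9 in replicate 2. All 8 lay inside the gene. Of these, 5 had a signal above 100: the strongest at chr15:97822871-97823294 reached 195.9 (111.2 in replicate 1 and 84.5 in replicate 2), and the next, at chr15:97837471-97837894, reached 185.9 (93.9 and 83.2). Both Hdac7 promoter peaks were at internal starts, 12.1 and 12.9 kb downstream of the 5′ end.

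Hdac9, the longest of the 34 genes at 869.5 kb, had 5 optimal peaks, with 6 in replicate 1 and 7 in replicate 2, and a strongest signal of 109.2. Its body held 12 optimal peaks, of which 4 were assigned to Prps1l1 and 3 lay beyond 100 kb from any start used. Hdac9 was the only one of the 34 genes to which peaks beyond the distance limit were nearest. Its outermost counted peak was 96.3 kb away with a signal of 41.2, and the first left out was 104.6 kb away with a signal of 23.4. At the 1 kb limit for promoters, the outermost counted peak was at Brd2 (760 bp, signal 29.4) and the first left out at Ncoa2 (1209 bp, signal 53.9). Hdac5 had 3 optimal peaks, of which 2 were promoter peaks and the strongest, in an intron 2.21 kb from an internal start, had a signal of 130.3 (73.7 in replicate 1 and 61.7 in replicate 2). The Hdac5 promoter call was not shared by the strongest peaks counted for each library, with 3 promoter peaks in replicate 1 and none in replicate 2. In the full list of replicate 2, the 2 optimal promoter peaks of Hdac5 had matches at ranks 49382 and 48406.

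The class I deacetylases are the catalytic subunits of the SIN3, NuRD, CoREST and NCoR complexes. Of these, Hdac1 had 2 overlapping promoter peaks with signals of 36.1 and 10.8. Hdac2 had no optimal peak in a territory of 182 kb, its closest lying 104202 bp away and assigned to Marcks, and had 1 peak in replicate 2. Hdac3, whose start is 123 bp from that of Rell2, had no peak in either library. No optimal peak was found at Hdac10 (class IIb), which had 1 in replicate 1, nor at Hdac11 (class IV), which had none in either library.

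The sirtuins are NAD-dependent deacylases. Peaks were found at 3 of 7 (42.9%, against 46.9% of all genes), with 12 in all and 9 in each library. Sirt5, whose product removes succinyl and malonyl groups in mitochondria, had 6 optimal peaks (5 in replicate 1 and 4 in replicate 2). The weakest was a promoter peak at an internal start, with no counterpart among the promoter peaks of either library or of the conservative set. In the full lists it had a match at rank 69685 in replicate 1 and rank 63543 in replicate 2. The strongest lay 28.4 kb upstream at chr13:43336894-43337317, with a signal of 172.4 in the optimal set (rank 1696), 85.1 in replicate 1 and 87.1 in replicate 2. Sirt4, also mitochondrial, had 5 peaks, all within 7.19 kb upstream of its TSS, or 24.5 per 100 kb of territory. Several of these peaks overlap one another and are not independent sites. With overlapping peaks merged, Sirt4 had 2 peaks or 9.80 per 100 kb, below Brd2 (15.7) and Sirt5 (11.1). With the nearest start of any gene it had none.

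Sirt6, a chromatin-bound sirtuin, had 1 promoter peak in the optimal set and in each library, with a signal of 71.9 (45.5 in replicate 1 and 23.6 in replicate 2). Sirt1, Sirt2, Sirt3 and Sirt7 had no assigned peak in any of these lists. A replicate 2 peak lay within 1 kb of the Sirt3 start (signal 18.2, rank 28661) but was counted for another gene. The start of Psmd13 is 99 bp from that of Sirt3. Sirt2 had a strong optimal peak nearby that was also counted for another gene. This peak, with a signal of 124.2 (61.2 in replicate 1 and 67.6 in replicate 2), lay 127 bp from its TSS, but was assigned to Nfkbib, whose divergent start is 95 bp from that of Sirt2. Counting peaks within 1 kb of a gene's own start whether or not that start is the nearest gave 10 of the 34 genes (29.4%), against 21.5% of all genes.

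The bromodomain genes had 11 peaks at 4 of 5 genes (80%, against 46.9% of all genes), with 16 in replicate 1 and 12 in replicate 2, and a median of 1. Brd2, which encodes a BET protein that binds acetylated histone H4, had 4 optimal peaks and 4 in each library, all 4 of the optimal ones at promoters. The strongest had a signal of 82.0 (47.6 in replicate 1 and 32.9 in replicate 2). In a territory of 19.1 kb this came to 21.0 per 100 kb. Only 1 of the 4 lay within 1 kb of the 5′ end, and the others were at internal starts. With overlapping peaks merged Brd2 had 3 peaks, or 15.7 per 100 kb. It had 2 with 1 start per gene and 2 with every transcript of protein-coding genes. A start of H2-DMa is 232 bp from one of Brd2.

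Brd7, a subunit of the PBAF chromatin remodeller, had 5 optimal peaks and 7 in each library, none at a promoter. It had 10 in the conservative set and 1 with the nearest start of any gene. The strongest, in an exon 4.63 kb from the TSS at chr8:88357352-88357775, had a signal of 98.2. Brd1, a scaffold of HBO1 and MOZ complexes, had 1 peak with a signal of 106.2 (65.5 in replicate 1 and 37.2 in replicate 2), and Brd3, a BET gene, had 1 with a signal of 31.9. Brd9, a subunit of the non-canonical BAF complex, had none in the optimal set or in replicate 2 and 1 in replicate 1. Its start is 27 bp from that of Trip13.

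All 4 coregulator genes had a peak, against 46.9% of all genes, with 19 in all (19 in replicate 1 and 20 in replicate 2) and a median of 5. None had a promoter peak in the optimal set, against 19.6% of all genes, nor in either library. In the conservative set Ncoa2 had 1 promoter peak. Ncoa3 had 8 peaks (9 in replicate 1 and 7 in replicate 2). With the nearest start of any gene it had 4. Its 4 strongest formed a series upstream of the gene at 9.53, 15.6, 23.5 and 37.7 kb, with signals between 65.9 and 77.8. No pooled peak lay within 1 kb of its TSS, although the pooled list held 300000. Ncoa2 had 6 peaks (6 in replicate 1 and 7 in replicate 2), or 1 with the nearest start of any gene, and the strongest lay 80.6 kb upstream at chr1:13454520-13454943 with a signal of 116.0 (49.1 in replicate 1 and 68.6 in replicate 2), in a window with AP-1, CEBP and glucocorticoid response element core matches. Ncoa1 had 4 peaks (2 in replicate 1 and 4 in replicate 2). The corepressor gene Ncor1 had 1, in an intron of the neighbouring gene Pigl with a signal of 34.8, in a territory of 196 kb. A start of Pigl is 81 bp from one of Ncor1. Ncor1 had 2 peaks in each library and 3 in the conservative set. It had none with the stronger 50% of the optimal set, with basic transcripts only or with every transcript of protein-coding genes. That all 4 genes had a peak thus depended on the starts used. Among the 19 peaks, 14 lay 10 to 50 kb from a start.

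**Figure D2:**
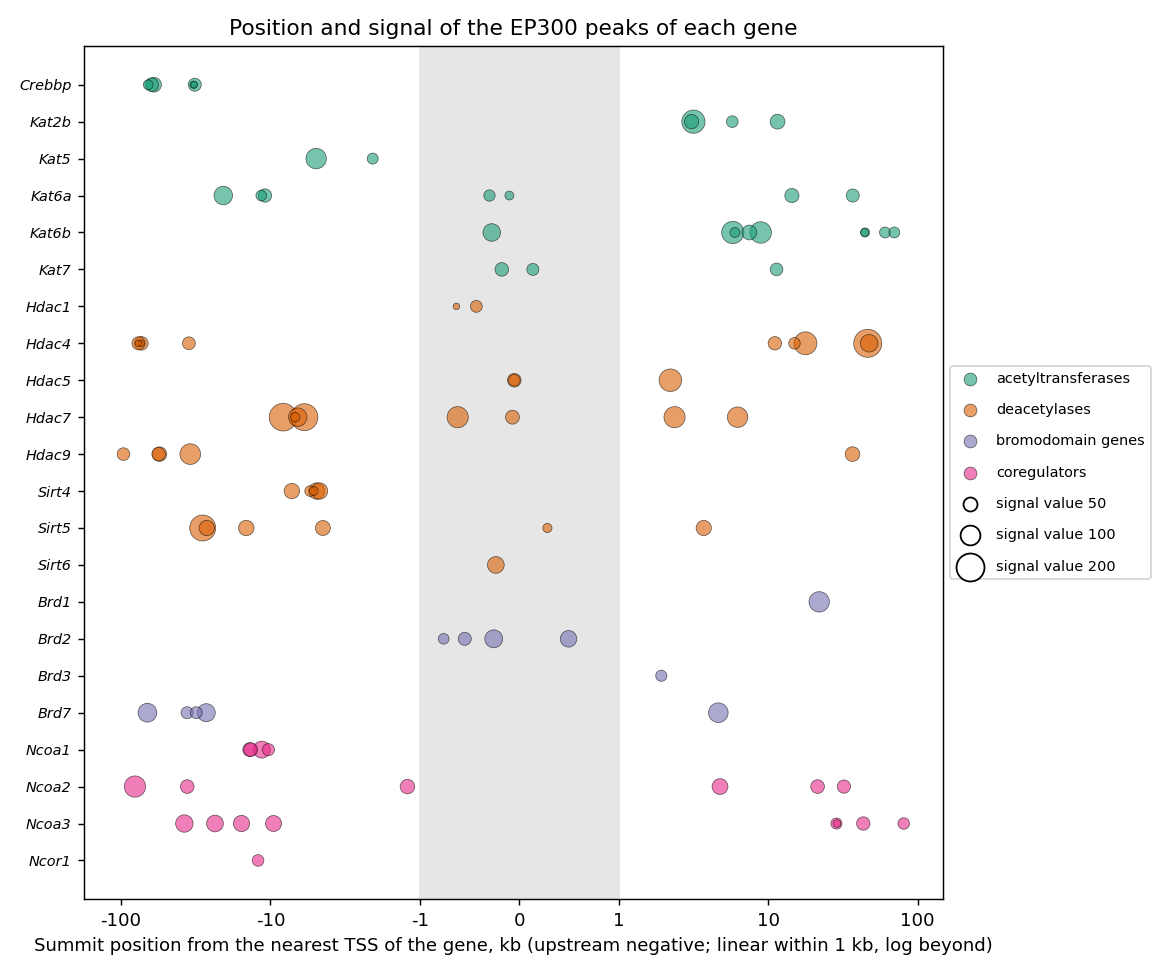
Summit position of each of the 101 peaks relative to the nearest TSS of its gene (horizontal axis in kb, linear within 1 kb and logarithmic beyond, upstream negative), with circle area proportional to the signal value and the promoter zone in grey. The TSS can be an internal one, so a peak upstream of it may still lie in the gene; the coregulator genes have no circle in the promoter zone, and the largest circles are at Hdac4, Hdac7 and Sirt5.

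The 101 peaks were close to EP300 peaks in general in their distance from a TSS and in their signal. Within 1 kb of a TSS lay 16.8% of them, against 15.9% of all assigned peaks. From 10 to 50 kb lay 40.6%, against 41.5%. The median distance was 11.5 kb, against 14.7 kb, and the median signal 48.0, against 48.4. A signal above 100 was reached by 16 of the 101 (15.8%), against 14.8% of all assigned peaks, and 10 of these 16 were at deacetylase genes, where they made up 25% of the peaks. Hdac7 alone held 5 of these 10, and without it 5 of 32 deacetylase peaks (15.6%) had a signal above 100. None of the 101 was among the strongest 1000 optimal peaks, which held 2.29% of assigned peaks. By position, 17 lay in promoters, 52 in introns, 29 between genes and 3 in exons, and 65 lay within the gene to which they were assigned. Relative to the nearest TSS, 63 lay upstream and 38 downstream, so that 62.4% were upstream, against 48.3% of all assigned peaks. That TSS can be an internal one, so this share is not the share of peaks upstream of the genes.

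Most of the sites were found in both libraries, at a share near that of all peaks. Of the 101 summits, 93 had a summit within 100 bp in the full list of replicate 1, 90 in that of replicate 2, and 83 in both, which is 82.2% against 85.4% of all assigned peaks. After the median log2 ratio of 0.40 between replicate 1 and replicate 2 over all assigned peaks was removed, 72 of the 83 were within 2-fold, and over all assigned peaks found in both libraries 89.1% were. The largest difference was at an intronic Ncoa1 peak at chr12:4430142-4430565, with a signal of 10.3 in replicate 1 and 39.1 in replicate 2. The optimal peaks also in the conservative set numbered 80 of 101.

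**Figure D3:**
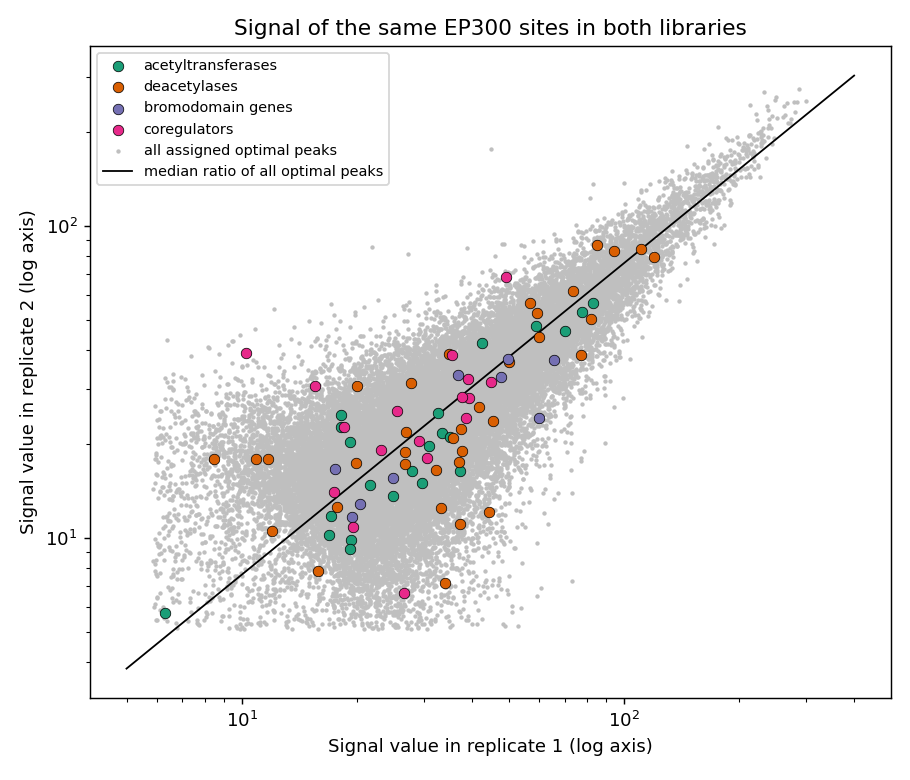
Signal value of the same optimal peaks in replicate 1 (horizontal, log axis) and replicate 2 (vertical, log axis): the peaks of the 34 genes found in both libraries (coloured by class, 83 peaks) over all assigned optimal peaks found in both (grey), with the median ratio of all as a line. Of the 83 peaks, 72 lie within 2-fold of the line.

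The genes differed in the sequence available to them. The median territory was 56.2 kb for the 34 genes, against 46.4 kb for all genes, and the median gene length 33.4 kb, against 17.4 kb. Per 100 kb of territory the 34 genes had 3.004 peaks, against 2.29 for all genes. The 3 p160 genes, with a median territory of 260.6 kb, had 2.67 per 100 kb and 6.0 peaks per gene, against 6.16 per gene over the 1092 genes with the largest territories (median 247.6 kb). Of these p160 genes, Ncoa1 had 4 peaks in 286.0 kb and Ncoa2 had 6 in 260.6 kb. Ncoa3 had 8 in 127.7 kb, against 2.83 per gene over 1092 genes with a median of 131.1 kb. By class the number per 100 kb was 3.67 for acetyltransferases, 2.93 for deacetylases, 3.91 for bromodomain genes and 2.18 for coregulators. Of the 12 genes with a territory over 100 kb, 10 had an optimal peak, and the exceptions were Ep300 and Hdac2. Of the 9 genes with a territory under 15 kb, Sirt6 alone had one. Over all genes, groups with median territories of 112.8 to 247.6 kb had means of 2.48 to 6.16 peaks per gene. Those with medians of 4.66 to 13.1 kb had means of 0.313 to 0.437. The part of territory in the difference from all genes was not tested.

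**Figure D4:**
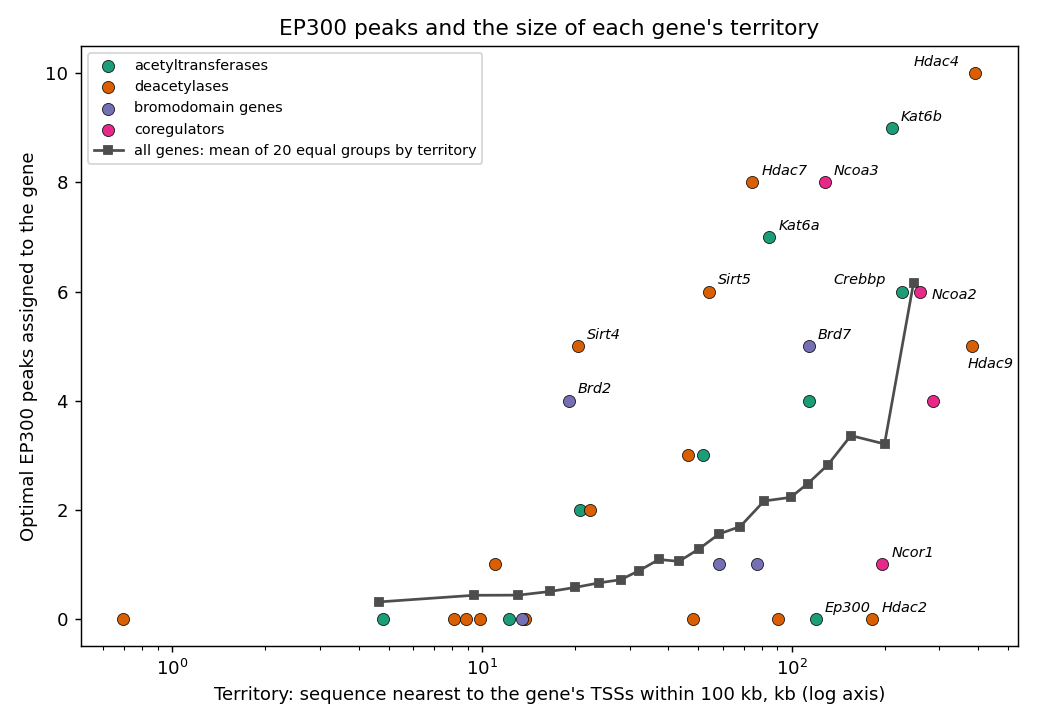
Optimal EP300 peaks of each gene (vertical axis) against its territory in kb (horizontal, log axis), for the 34 genes (coloured by class) and as the mean of 20 equal groups of all genes ordered by territory (grey line, from 0.313 to 6.16 peaks). Sirt4, Brd2, Sirt5 and Hdac7 lie above the line, and Ncor1, Hdac2 and Ep300 lie below it.

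The partners of these enzymes, 75 genes for complex subunits and further acetyl-lysine readers chosen by name with earlier results known, had 173 peaks (168 in replicate 1 and 174 in replicate 2). At least 1 peak was found at 54 of them (72.0%, against 46.9% of all genes) and a promoter peak at 27 (36.0%, against 19.6%). Of the 6 p300 and CBP partners, Crtc3, a CREB coactivator gene, had 5 peaks and Cited2, a transcriptional modulator that binds p300, had 4. The other 4 (Carm1, Cited4, Crtc1 and Crtc2) had none, so that 33.3% had a peak. Of the SAGA and ATAC subunits, Sgf29 had 5 and Tada2a 3, and of the NuA4 subunits Dmap1 had 4 and Ep400 3. Of the MOZ, MORF and HBO1 subunits, Jade2 had 8 and Brpf1 2, and of the MSL and NSL subunits Msl1 had 4 and Mcrs1 2. Of the SIN3, NuRD and CoREST subunits, Gatad2a had 8 and Chd3 6. Of the other nuclear receptor coregulators, Nrip1 had 10 and Tbl1xr1, a subunit of the NCoR complex, 8. Of the other acetyl-lysine readers, Smarca2, an ATPase of the BAF remodeller, had 16 and Baz2b 13, both more than any of the 34 genes.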

How the data were processed

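The libraries, peak lists and annotation were used as follows. Notes deposited beside the libraries say that the authors mapped reads to mm10, called peaks per library and on the pooled libraries, and derived optimal and conservative sets of reproducible peaks by the irreproducible discovery rate. Neither aligner nor caller is named (not given in the sources used here). Each peak's signal value is as deposited by the authors, on a scale that was not stated, and served only to describe and rank peaks. No read counts were given, so depth and its precision could not be stated. Peaks on the 21 chromosomes were assigned by summit to the nearest start of any protein-coding transcript of GENCODE vM21 (GRCm38.p6, 21853 genes) within 100 kb; 16 optimal peaks on other sequences were left out.

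Gene, list and motif choices were made with earlier results of these data known, and no test was run over them, as there is 1 group of 2 libraries. The strongest 43988 peaks stood for a single library, and summits matched within 100 bp. Position detail was given for Ep300, Crebbp, the 3 genes of each class with most peaks and genes without any, and of the partners the 2 with most per group. Other genes and peaks were named after their values were seen, as were the sequences of Kat2b, Hdac7 and Sirt5. Windows overlapping an annotated untranslated region were not shown as sequence. Assignment was tested on simulated data, where 5000 of 5000 peaks were given to the right of 2000 starts. Alternatives were other peak sets, each library alone, distances, promoter widths and start sets. Python 3.11.15, numpy 2.4.6, pandas 2.3.3, pysam 0.24.0 and matplotlib 3.10.9 were used.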

Additional observations from a re-analysis of the deposited data

How the results depend on the processing

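Assignment to the nearest TSS is not a measured link, overlapping peaks are not independent, and without read counts the limit set by depth is unknown. No paired analysis was possible because there is 1 group. The number of genes with a peak stayed within 1.5 times its value of 22 under each alternative run. The cause of the changes below was not tested, except that keeping the stronger 50% of the same set, or a shorter distance or promoter, can only leave fewer peaks. The conservative set is smaller but no subset of the optimal set, and gave more peaks for bromodomain genes (16) and coregulators (21). With the stronger 50% of the optimal set, all 34 genes had 50 peaks and 4 genes had a promoter peak. Peaks then numbered 11 for acetyltransferases, 23 for deacetylases, 6 for bromodomain genes and 10 for coregulators. Promoter peaks numbered 1, 3 and 2 for the first 3 classes, and genes with one 1 for acetyltransferases and 2 for deacetylases. Within 10 kb the 34 genes had 45 peaks, with 14, 22, 6 and 3 by class. With the nearest start of any gene they had 64, with 26 for deacetylases, 7 for bromodomain genes and 10 for coregulators. With each library alone, 10 to 14 genes had a promoter peak. Acetyltransferases then had 8 promoter peaks at 6 genes in either library, deacetylases 4 to 8 at 3 to 5 genes, and bromodomain genes a promoter peak at 1 to 3 genes. With the conservative set 5 acetyltransferase genes had a promoter peak, and coregulators had 1 promoter peak at 1 gene, as also with promoters of 2 kb, where 2 bromodomain genes had one. Merging overlapping peaks left 3 acetyltransferase promoter peaks. With 1 start per gene, promoter peaks numbered 5 for deacetylases and 1 for bromodomain genes. Bromodomain genes had 2 promoter peaks with 500 bp promoters and with every transcript of protein-coding genes, an alternative chosen after seeing the data.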
